A study of Equus caballus with 4 samples.

Results

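The 10 genes *acly*, *acaca*, *fasn*, *scd*, *scd5*, *fads1*, *fads2*, *elovl1*, *elovl5* and *elovl6* encode the enzymes that build fatty acids, introduce double bonds into them and lengthen them. Members were the noncontrol probes of the horse array whose gene symbol in the files, ignoring case, was one of these names. This gave 27 of 43603 probes, for 9 of the 10 genes. No probe carried the symbol *fads1*, but 5 probes whose description in the files names that gene are given beside the others. Of the 27 probes, 24 met the filter on dim probes and are called tested below, with at least 1 tested probe for each of the 9 genes. The genes were picked with the ratios of these arrays already known, so the ratios of the members are a description and no p-value is given for them.

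Fatty acid synthesis starts from citrate that leaves the mitochondrion. ACLY splits it to cytosolic acetyl-CoA, ACACA carboxylates this to malonyl-CoA, and FASN joins the units to palmitate. ELOVL enzymes then carry out the rate-limiting condensation of each round of elongation, while the stearoyl-CoA desaturases SCD and SCD5 make monounsaturated and the FADS enzymes polyunsaturated fatty acids. In liver and fat the pathway stores energy, and in growing or fusing cells it supplies membrane lipids. Transcription of many of its genes is driven by the sterol regulatory element-binding protein SREBP-1, encoded by *srebf1*, and by the liver X receptors (LXR), which are opened by oxysterols. Gamma-oryzanol (GO) is a mixture of ferulic acid esters of plant sterols and triterpene alcohols from rice bran.

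The cells were primary satellite cells, the stem cells of muscle, from the semitendinosus muscle of colts aged 6 months. The culture with the best viability and fusion was used, and the text of the study does not say whether the 4 replicates were separate horses, so the spread between them may be technical. On the third day of differentiation the GO-treated cells had been with 125 nM GO for 24 h and the control cells with the vehicle, dimethyl sulfoxide at 0.04 μl/ml, which both groups received. RNA of GO-treated cells was labeled with Cy5 and RNA of control cells with Cy3 on every one of the 4 two-color arrays, all from 1 slide, so that GO and dye cannot be told apart.

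Well above background were 63.5 to 68.9% of the noncontrol spots in the control channel and 57.4 to 67.0% in the GO channel, and 0 spots were saturated. Values below are log2 ratios of the Feature Extraction processed signals, GO over control, and signals are these processed signals in arbitrary units. Past both thresholds means an adjusted p no higher than 0.05 (limma, Benjamini-Hochberg) and a fold change no smaller than 1.3, which is 0.38 on the log2 scale. Where a gene had several tested probes, the brightest stood for it in counts and figures. Probes named by symbol in the files came before brighter ones named in another way. All 7 myogenic marker genes with a probe (*myf5*, *myod1*, *myog*, *des*, *ncam1*, *myh3* and *acta1*) were well above background in both channels on all 4 arrays, and *pax7*, *cdh15* and *tnnt1* had no probe by name.

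The probes are shown here so that the place each one reads can be seen. Positions are those of the files, on the EquCab1 build, and no annotation of that build was used, so exon and UTR are not given. The strand follows from the order in which the files list start and end. The 5 probes of *scd5* start at slightly different bases of 1 short window, and the capitals mark the 54 bases that all 5 hold.
*scd5* A_69_P083136, chr3:44936343-44936402, minus strand: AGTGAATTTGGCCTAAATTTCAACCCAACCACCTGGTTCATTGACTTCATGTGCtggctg
*scd5* A_69_P083137, chr3:44936344-44936403, minus strand: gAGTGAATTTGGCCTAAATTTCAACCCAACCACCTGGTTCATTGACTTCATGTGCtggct
*scd5* A_69_P083138, chr3:44936347-44936406, minus strand: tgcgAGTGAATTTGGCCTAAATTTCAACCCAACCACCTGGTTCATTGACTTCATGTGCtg
*scd5* A_69_P083139, chr3:44936348-44936407, minus strand: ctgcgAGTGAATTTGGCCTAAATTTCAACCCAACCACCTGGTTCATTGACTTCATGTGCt
*scd5* A_69_P083140, chr3:44936349-44936408, minus strand: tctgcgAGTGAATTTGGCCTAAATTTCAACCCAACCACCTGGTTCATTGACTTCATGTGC
They are therefore 5 readings of 1 site and not 5 sites of the transcript.

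Because SCD and SCD5 catalyze the same reaction, their probes were compared for shared sequence. Over all pairs of *scd* and *scd5* probes, placed without gaps, at most 26 bases were identical, in an overlap of 45, or 57.8%. In the lines below these identical bases are in capitals.
*scd* A_69_P094733, bases 1 to 45: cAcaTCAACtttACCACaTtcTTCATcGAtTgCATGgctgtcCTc
*scd5* A_69_P083136, bases 16 to 60: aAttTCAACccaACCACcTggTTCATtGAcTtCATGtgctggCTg
The *scd* probe lies at chr1:28761237-28761296 and the other *scd* probes begin at 28761168 and 28761188 of the same chromosome. Whether cRNA of 1 gene bound to the probes of the other was not tested.

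Of the desaturases of polyunsaturated fatty acids, *fads2* had 5 probes shifted by single bases on chr12. One of them is shown, with the 56 bases that all 5 hold in capitals, because its reading near background shapes the values below. The single probe of *elovl6* is shown since it was the only member probe past both thresholds in the higher direction.
*fads2* A_69_P010509, chr12:12207517-12207576, plus strand: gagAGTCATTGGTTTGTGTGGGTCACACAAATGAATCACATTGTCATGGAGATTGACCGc
*elovl6* A_69_P089691, chr2:101192543-101192602, plus strand: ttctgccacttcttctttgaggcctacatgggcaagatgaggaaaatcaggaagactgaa
The 5 *elovl1* probes overlap by 32 bases, and the 5 *acly* probes by 56, so these too are repeated readings of 1 place each.

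Across the 9 genes the median log2 ratio was 0.31, beside 0.00 over all 9505 genes tested. By array the median of the 9 was 0.29, 0.22, 0.31 and 0.33 on arrays 1 to 4, and that of all genes lay between -0.01 and 0.02. The ratio was above 0 on all 4 arrays for 7 of the 9 genes, below 0 on all 4 for *scd5* alone, and of mixed sign for *fasn*. Of all genes tested, 21.1% were above 0 on all 4 arrays and 21% below. Past both thresholds were 2 of the 9, *elovl6* in the higher and *scd5* in the lower direction, where 8.69% of all genes passed (3.3% higher and 5.39% lower). These counts come from the contrast by which the genes were picked, and nothing is read from them. Counted by probe, 6 of the 24 tested were past both thresholds, the single *elovl6* probe and all 5 of *scd5*, beside 8.94% of 26835 probes (3.33% higher and 5.61% lower). The 5 *scd5* probes read 1 site, so nothing is read from this count either.

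**Figure D1:**
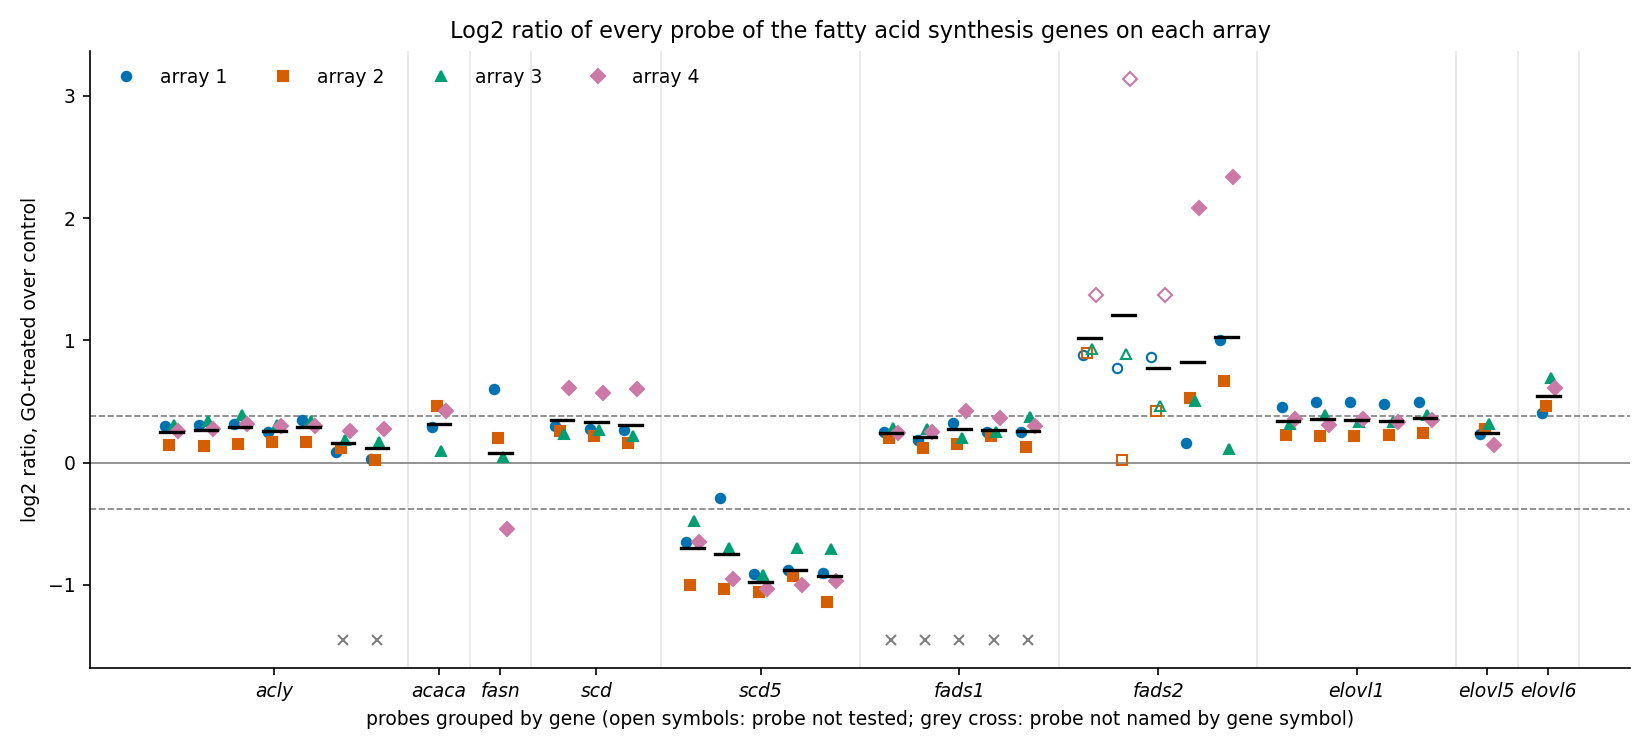
Log2 ratio, GO-treated over control (vertical axis), on each of 4 arrays for every probe, grouped by gene, with the mean as a black bar and dashed lines at a fold change of 1.3 in either direction. All 20 points of *scd5* lie below 0, those of *scd*, *acly*, *acaca*, *fads1*, *fads2* and the *elovl* genes above 0, and *fasn* spreads across 0.

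*Scd5*, the second stearoyl-CoA desaturase gene of horse and human, was the member with the lower signal in GO-treated cells. Its brightest probe gave log2 ratios of -0.29, -1.04, -0.70 and -0.95 on arrays 1 to 4, a mean of -0.74 ± 0.34 (SD, n = 4) and a fold change of 1.68. The control signal of this probe was 138, 125, 70.7 and 71.5, and the GO signal 113, 60.8, 43.5 and 37.0. The GO signal was below the control signal within each array, but the groups overlap across arrays because this probe read high in both channels on array 1. In each of the other *scd5* probes every GO signal lay below every control signal.

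The least variable of the 5 *scd5* probes, A_69_P083138, gave -0.91, -1.06, -0.92 and -1.03, a mean of -0.98 ± 0.08 and a fold change of 1.97. The means of the other three were -0.70, -0.88 and -0.93. On arrays 1 to 4 the median of the 5 probes was -0.88, -1.04, -0.70 and -0.97. On array 1 the brightest probe stood apart from the others, which lay between -0.91 and -0.65 there. All 5 probes were well above background in both channels on every array, yet they were dim. Raw signals were 3.79 to 6.80 times their local background for control cells and 2.18 to 7.28 times for GO-treated cells. Both upper values belong to the brightest probe, and the other *scd5* probes reached at most 5.39 times for control and 4.10 times for GO-treated cells.

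*Scd*, the main stearoyl-CoA desaturase gene and a target of SREBP-1 and LXR, had log2 ratios above 0 with all 3 probes on all 4 arrays. The brightest probe gave 0.27, 0.16, 0.21 and 0.60, a mean of 0.31 ± 0.20 (SD, n = 4) and a fold change of 1.24. Its control signal was 467, 538, 532 and 426, and its GO signal 562, 601, 617 and 646. Every GO signal was above every control signal for this probe, and array 4 held both the lowest control and the highest GO signal. Without array 4 the mean was 0.21. The other *scd* probes had means of 0.33 and 0.35, and 0 of the 3 probes were past both thresholds. The 2 desaturase genes were thus on opposite sides of 0 on all 4 arrays; that difference lies in the values that chose them and was not tested.

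**Figure D2:**
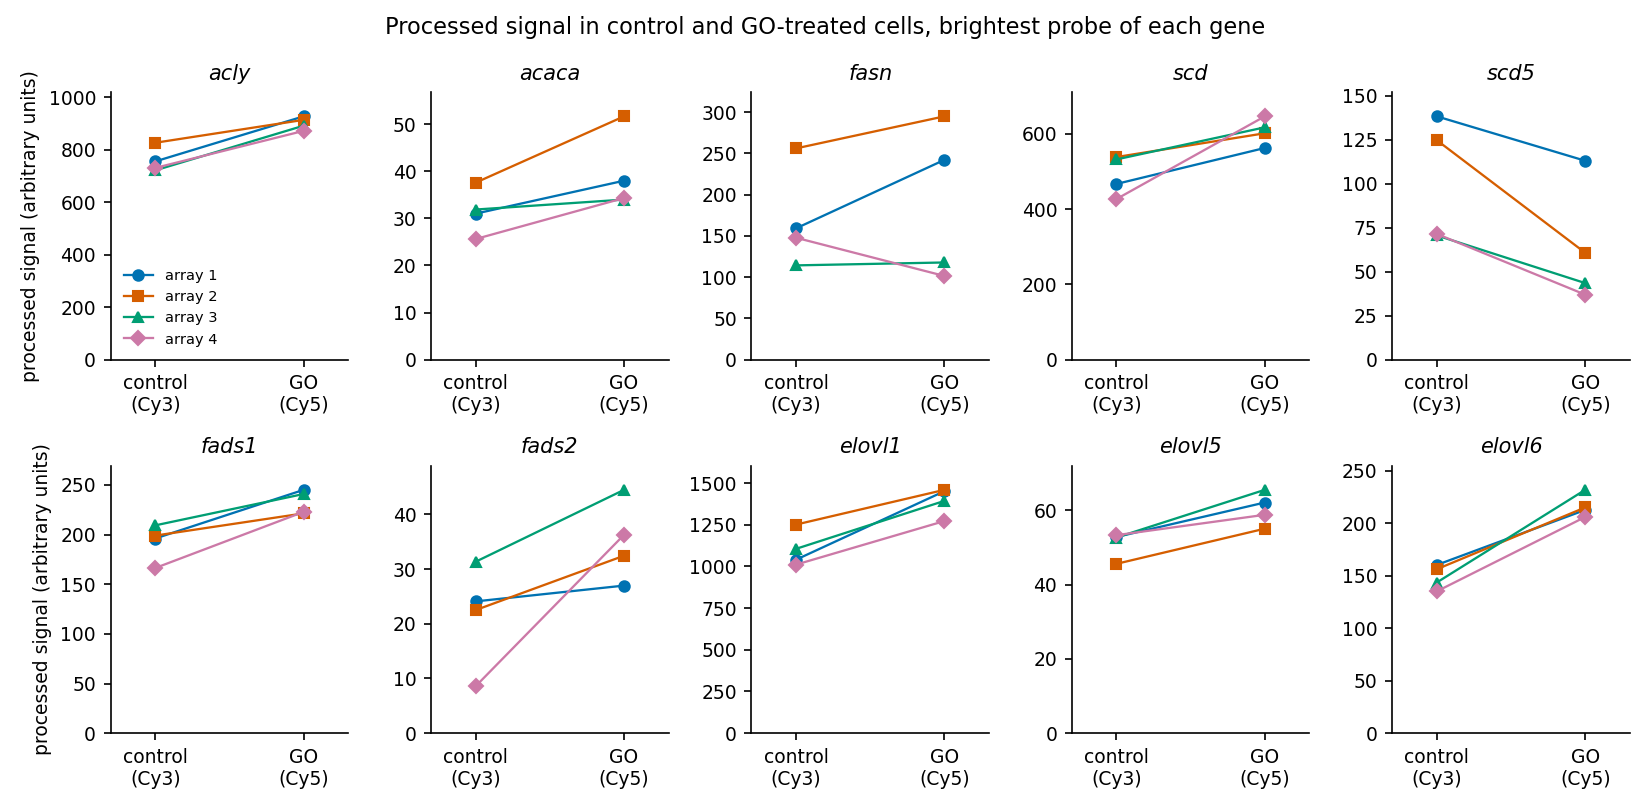
Processed signal (vertical axis, arbitrary units, from 0) of the brightest tested probe of each gene in control and GO-treated cells, with 1 line per array. Lines fall for *scd5* on all 4 arrays and rise for the other genes, except for *fasn*, which falls on array 4. Levels are not comparable between panels.

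Of the enzymes that make polyunsaturated fatty acids, *fads2*, which carries out the first desaturation, was measured close to background. Its brightest probe gave log2 ratios of 0.16, 0.53, 0.51 and 2.08, a mean of 0.82 ± 0.86 (SD, n = 4). The control signal was 24.1, 22.5, 31.4 and 8.57, and the GO signal 27.0, 32.5, 44.5 and 36.3. Array 4 combined the lowest control signal with a GO signal inside the range of the others, and without it the mean was 0.40. This probe stood well above background on 3 arrays for control cells and on 4 for GO-treated cells.

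The other *fads2* probes had means between 0.78 and 1.21, and array 4 was the highest on each of the 5, from 1.37 to 3.14. On arrays 1 to 3 the 5 probes lay between 0.02 and 1.00. Only 2 of the 5 were tested. They met the filter through the GO channel alone, in which the signal was the higher, and 0 of these were past both thresholds. Raw signals were 1.87 to 2.72 times their local background for control cells and 1.76 to 3.46 times for GO-treated cells.

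The 5 probes that the files describe as *fads1*, which carries out the later desaturation step, were all well above background in both channels on all 4 arrays. Every one was above 0 on all 4 arrays, with means from 0.21 to 0.28. The brightest gave 0.32, 0.15, 0.20 and 0.42, a mean of 0.28 ± 0.12 (SD, n = 4). Its control signal was 196, 199, 209 and 166 and its GO signal 245, 221, 241 and 223, so that each GO signal was above each control signal. None of the 5 was past both thresholds.

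Among the elongases, *elovl6*, which lengthens the palmitate that FASN releases, had the highest ratio of those well above background. It gave 0.41, 0.46, 0.69 and 0.61 on arrays 1 to 4, a mean of 0.54 ± 0.13 (SD, n = 4) and a fold change of 1.46. The control signal of its probe was 160, 156, 144 and 135, and the GO signal 213, 215, 232 and 206. The channels did not overlap. Its mean was 0.49 to 0.59 with each array left out in turn.

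*Elovl1*, which extends saturated and monounsaturated acyl chains to very long ones, had 5 probes with means between 0.34 and 0.37. The brightest gave 0.48, 0.22, 0.33 and 0.33, a mean of 0.34 ± 0.11. Its control signal was 1040, 1251, 1106 and 1011 and its GO signal 1452, 1460, 1393 and 1272, with array 2 the highest in both channels. All GO signals were above all control signals. Within an array the 5 probes differed by little, the widest range being 0.32 to 0.39 on array 3.

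For *elovl5*, an elongase of polyunsaturated fatty acids, the single probe gave 0.23, 0.27, 0.32 and 0.14, a mean of 0.24 ± 0.07 and a fold change of 1.18. The control signal was 52.8, 45.6, 52.6 and 53.3 and the GO signal 62.1, 55.04, 65.5 and 58.8. GO-treated cells were the higher in each array and in the groups as a whole. Positions listed for this probe span 1360 bases of chromosome 20, from 44256738 to 44258097, although it is 60 bases long.

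At the start of the pathway, *acly* had 5 probes at chr11:19752472-19752535 with means between 0.25 and 0.29. The brightest of these 5 gave 0.30, 0.14, 0.31 and 0.26, a mean of 0.25 ± 0.07 (SD, n = 4). Control signals were 755, 826, 721 and 730 and GO signals 927, 914, 891 and 872, without overlap. Another 2 probes, which carry a transcript accession in place of the symbol, were matched to *acly* through RefSeq and lie farther along the chromosome, up to 19753372. Their signals were far higher, 7455 to 12304.5 in control and 8192 to 13261 in GO-treated cells. They gave lower means, 0.12 and 0.16. Both were also above 0 on all 4 arrays, but the probe with the mean of 0.12 stood at only 0.03 and 0.02 on arrays 1 and 2.

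*Acaca*, the acetyl-CoA carboxylase of the cytosol, gave 0.29, 0.46, 0.09 and 0.42, a mean of 0.32 ± 0.17 and a fold change of 1.25. The control signal was 31.0, 37.6, 31.9 and 25.6 and the GO signal 38.0, 51.6, 34.0 and 34.3, so the groups overlap. Its probe, at chr11:35055672-35055731, was well above background in both channels on all 4 arrays although the raw signal was only 1.98 to 2.73 times the local background. The gene of the mitochondrial carboxylase, *acacb*, was not tested.

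*Fasn* was the member without a common direction. The log2 ratios were 0.61, 0.20, 0.04 and -0.54 on arrays 1 to 4, a mean of 0.08 ± 0.48 (SD, n = 4). Control signals were 159, 256, 114 and 148, and GO signals 242, 295, 118 and 101. Its only probe is placed on an unassigned part of the genome, chrUn:275262650-275262709. With 1 array left out, the mean lay between -0.10 (without array 1) and 0.28 (without array 4).

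The size of the ratios depended on how background and dyes were treated. With normexp, which adds 50 to both channels, and loess, the mean of *scd5* was -0.43 and that of *elovl6* 0.36, which is below the fold threshold. The dim members *acaca* and *elovl5* then stood at 0.08 and 0.07, *fads2* at 0.31 and *fasn* at -0.01. The brighter ones moved less, to 0.25 for *scd*, 0.21 for *acly* and 0.30 for *elovl1*. With each array centred on its median and no lowess, *scd5* was at -0.80, *elovl6* at 0.53, *scd* at 0.33, *elovl1* at 0.38 and *acaca* at 0.23. In both settings *scd5* was below 0 on all 4 arrays. With normexp and loess, however, it was close to 0 on array 1 (-0.05), beside -0.74, -0.42 and -0.50 on arrays 2 to 4.

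The median of the 9 genes was 0.21 with normexp and loess and 0.27 without lowess, beside -0.01 and 0.01 over all genes. Above 0 on all 4 arrays were 6 genes in each setting, *acaca* having a value under 0 on array 3, where 19.9% and 23.3% of all genes were. Without lowess the ratio of tested probes rose with brightness, from a median of -0.18 in the dimmest 10% to 0.25 in the brightest 10%. Against the median of the 500 tested probes nearest in brightness, the distance of *scd5* was -0.77 with Feature Extraction, -0.42 with normexp and -0.77 without lowess, and that of *elovl6* 0.53, 0.37 and 0.53.

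**Figure D3:**
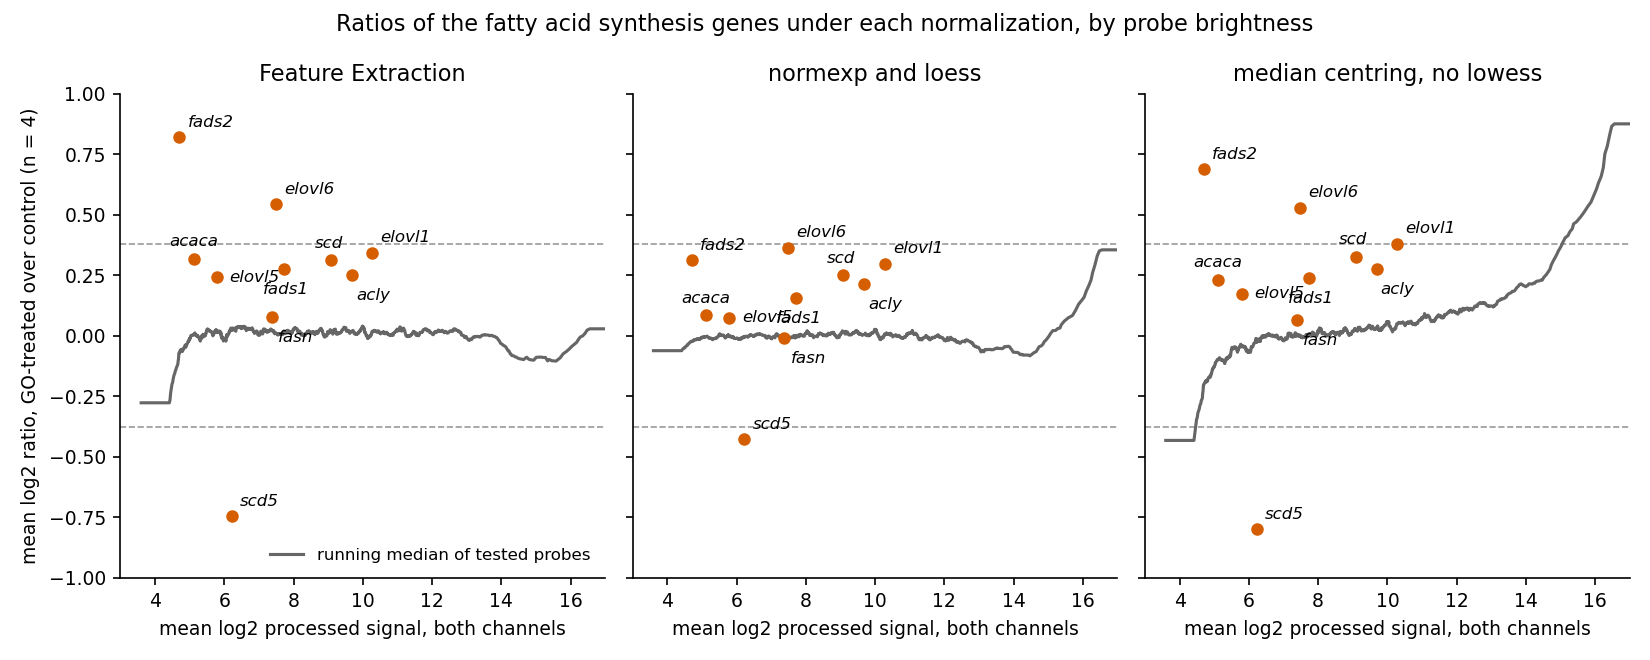
Mean log2 ratio (vertical axis, n = 4 arrays) of the brightest probe of each gene against its mean log2 processed signal (horizontal axis), with Feature Extraction ratios (left), normexp and loess (middle) and median centring without lowess (right). The grey line is the running median of 500 tested probes, and dashed lines mark a fold change of 1.3; *scd5* lies below the line and *elovl6* above it in all 3 panels.

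Genes around the members were taken from 5 lists of fatty acid metabolism, written from textbook knowledge and holding none of the 10. These lists and the sterol lists below were also chosen with earlier results of these data known, which limits their counts and p-values. Of 82 genes 61 were tested, 5 were past both thresholds in the higher and 2 in the lower direction, and their median was 0.04 (0.00 over all genes). That is 11.5% past both thresholds, beside 8.69% of all genes (3.3% higher and 5.39% lower). In carbon supply and synthesis, 1 of 12 was higher, with a median of 0.14. This was *slc25a1*, the carrier that exports citrate from mitochondria. It gave 0.72, 0.21, 0.41 and 0.25, a mean of 0.40 ± 0.23 (adjusted p = 0.0345, limma), and was no longer past both thresholds without array 1 (0.29), array 2 (adjusted p = 0.0704) or array 3 (adjusted p = 0.107), nor with normexp and loess (0.34).

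In desaturation and elongation 1 of 11 was higher and 1 lower, with a median of 0.00. *Cyb5r3*, the reductase that passes electrons to cytochrome b5 and so to the desaturases, gave 0.80, 0.16, 0.35 and 0.44, a mean of 0.44 ± 0.27 (adjusted p = 0.0348, limma). Its adjusted p from limma was 0.0527, 0.0527, 0.0887 and 0.0753 without arrays 1 to 4 in turn, with means of 0.32, 0.53, 0.47 and 0.44. The call was thus lost whichever array was left out, but fewer arrays also weaken the test. With normexp and loess its mean was 0.24, under the fold threshold. *Hacd1*, the muscle-enriched dehydratase of the elongation cycle, was lower, with -0.48, -0.52, -0.39 and -0.48, a mean of -0.47 ± 0.05 (adjusted p = 0.00557, limma). It kept its call with each array left out and stood at -0.52 with normexp and loess, but at -0.29, under the fold threshold, without lowess. Both of its probes passed.

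Of the regulators, 2 of 14 were higher and 1 lower, with a median of 0.09. *Srebf1* gave 0.68, 0.22, 0.28 and 0.40, a mean of 0.39 ± 0.20 (adjusted p = 0.0285, limma). It was not past both thresholds without array 1 (0.30), or without arrays 2, 3 and 4 (adjusted p = 0.0628, 0.0675 and 0.0671 from limma). *Nr1h3*, which encodes LXR alpha, gave 0.28, 0.17, 0.53 and 0.60, a mean of 0.39 ± 0.20 (adjusted p = 0.0287, limma). It lost its call without array 1 (adjusted p = 0.0510), array 3 (0.104) or array 4 (0.0758). With normexp and loess both genes stood at 0.08. Without lowess *srebf1* was at 0.29 (adjusted p = 0.0995, limma) and *nr1h3* at 0.32, both under the fold threshold. The *srebf1* probe was well above background on 4 arrays for control cells and on 3 for GO-treated cells.

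*Prkaa2*, a catalytic subunit of the kinase AMPK that phosphorylates and inhibits ACACA, was lower, at -0.43, -0.15, -0.49 and -0.99, a mean of -0.52 ± 0.35 (adjusted p = 0.0405, limma). Its adjusted p was 0.0865, 0.0504, 0.110 and 0.0595 without arrays 1 to 4 in turn. It met the filter through the control channel alone, in which it was the higher, being well above background on 3 arrays for GO-treated cells. With normexp and loess its mean was -0.24 (adjusted p = 0.0965, limma). Not past both thresholds were *srebf2* (0.16, adjusted p = 0.176 from limma), *nr1h2* (0.09, 0.782), *mlxipl* (0.26, 0.0630), *insig1* (0.21, 0.109) and *scap* (-0.08, 0.40). Among these the glucose sensor *mlxipl* and *insig1*, which retains SREBP in the endoplasmic reticulum, were above 0 on all 4 arrays.

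In uptake and oxidation 1 of 14 was higher, with a median of 0.06. *Fabp3*, the fatty acid-binding protein of muscle, gave 0.31, 0.33, 1.15 and 0.88, a mean of 0.67 ± 0.42 (adjusted p = 0.0297, limma), and all 5 of its probes passed. It was not past the adjusted p without array 2 (0.0545), array 3 (0.0743) or array 4 (0.0705, limma). In acyl-CoA activation and glycerolipid synthesis 0 of 10 genes were past both thresholds with limma and 0 with the plain one-sample test, 1 had an unadjusted p under 0.05 (34.7% of all genes did), and the median was -0.04.

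The sterol genes share SREBP and LXR control with the members. Of 23 tested, 2 were higher and 0 lower with limma, 0 with the plain one-sample test, 12 had an unadjusted p under 0.05 (52.2%, beside 34.7% of all genes), and the median was 0.19. The 2, both higher, are 8.7% of the 23, beside 8.69% of all genes past both thresholds (3.3% higher and 5.39% lower). One of the 2 higher genes was *nr1h3*, described with the regulators.

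**Figure D4:**
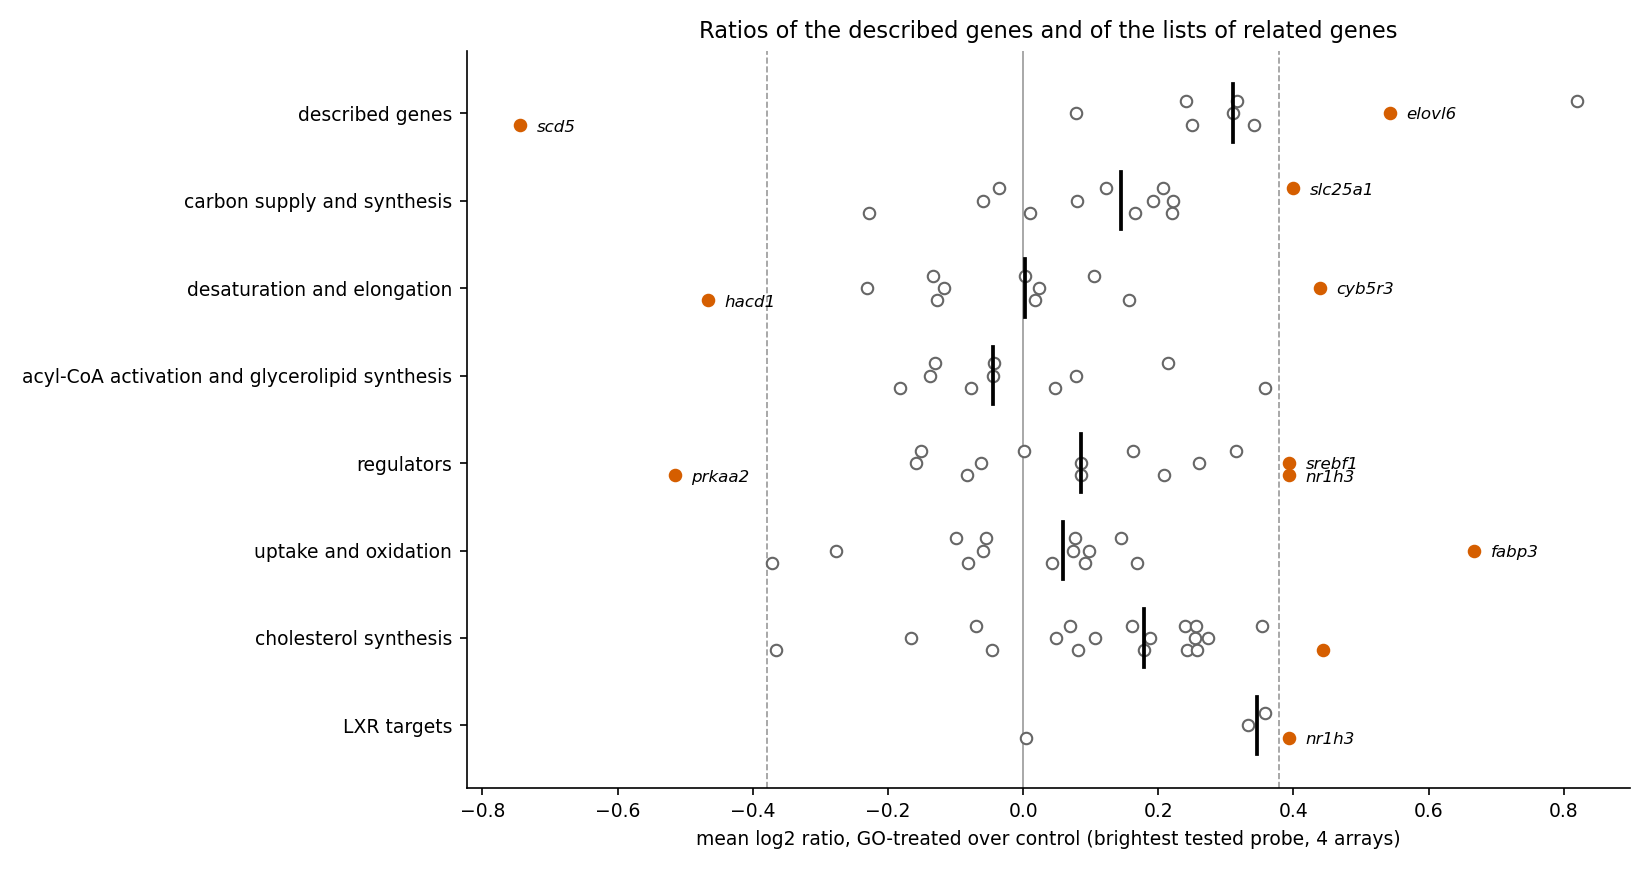
Mean log2 ratio (horizontal axis) of the brightest tested probe of each gene in the described set and in 7 lists, 1 circle per gene, filled where past both thresholds, with the median as a black bar and dashed lines at a fold change of 1.3. The median of the described genes was 0.31 and those of the lists lay between -0.04 and 0.35.

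Marker genes of muscle cells moved with the contrast as well. Of the 7 myogenic markers 6 were past both thresholds in the lower direction (limma, adjusted p from 0.00102 to 0.0123), namely *myf5* (-0.93), *myh3* (-0.83), *acta1* (-0.64), *ncam1* (-0.63), *des* (-0.61) and *myog* (-0.40). Without lowess 4 of the 6 were under the fold threshold, *myh3* at -0.15, *acta1* at -0.08, *des* at -0.33 and *myog* at -0.36. With normexp and loess *myog* alone was, at -0.35. The summed processed signal of the 7 was 146022 to 198170 in control and 84203 to 117210 in GO-treated cells. Their part in the values of the fatty acid genes was not tested, and fewer cells of a type and less RNA per cell cannot be told apart.

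Markers of fat cells, which hold this pathway at high level, were near background. Of 8 with a probe, 1 was tested, the water and glycerol channel *aqp7* (-0.09), and *adipoq*, *plin1*, *fabp4*, *lep*, *cidec*, *pparg* and *lpl* did not stand well above background in either channel on every array. *Plin1*, *fabp4*, *cidec*, *adipoq* and *lep* were so on 0 arrays. The summed signal of the 8 was 117 to 167 in control and 111 to 182 in GO-treated cells. Of 7 tested fibroblast markers *pdgfra* was higher (0.87 ± 0.48, adjusted p = 0.0199, limma), and their sum was 200089 to 284480 and 199087 to 265508. With normexp and loess *pdgfra* was at 0.37, under the fold threshold. Without lowess the median of the fibroblast markers was 0.36 in place of 0.08, with *col3a1* at 0.82 in place of -0.10 and *dcn* at 0.74 in place of 0.04. Probes of a gene also differed with Feature Extraction ratios. The *pdgfra* probes had means of 0.87 and 1.38, and both were past both thresholds. The second *dcn* probe was past both thresholds (0.42), and probe means ran from -0.18 to 0.37 for *col3a1* and from -0.20 to 0.32 for *col1a1*. Of 3 tested leukocyte markers 0 passed with limma or the plain test, with 2 at an unadjusted p under 0.05 (34.7% of all genes), and their sum over 7 probes was 5234 to 6121 and 5715 to 6453.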

How the data were processed

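RNA of GO-treated (Cy5) and control cells (Cy3) was compared on 4 two-color horse arrays of 60-base probes, which the labels call biological replicates. The authors scanned them with Agilent Feature Extraction; the file headers give version 10.10.1.1, whereas the methods name another. The authors deposited, per spot and channel, intensity values (mean, local background, background-subtracted and processed signals) and the log10 ratio of processed Cy5 over Cy3 after detrending, with the dyes normalized by a linear and a lowess step. The series table they deposited repeats these ratios (180880 of 180880 values equal within 1e-06).

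The deposited ratios were converted to log2. Control and outlier spots (10 to 19 per array) were left out and spots of a probe averaged. A probe was tested when well above background in one channel on all 4 arrays (26835 of 43603). The ratios were tested against 0, two-sided, with limma 3.58.1 (intercept, eBayes) in R 4.3.3 (tables read with version 1.17.8 of the data.table package), with Benjamini-Hochberg adjustment over these probes and the methods' thresholds. The prior SD was 0.144 with 3.60 degrees of freedom, beside 3 residual. The ratio pairs the channels of an array, since both were hybridized together. The script was tested on simulated data. The number of arrays limits the precision.

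Symbols came from the files for 24962 probes, from the RefSeq table of the TB-T2T assembly by gene number for 1684 and by accession for 431, and from full names for 13; 16513 had none. Positions are those of the files.

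The members and lists were chosen with earlier results of these data known. Named were all members with every probe, every listed gene past both thresholds, 7 regulators, and markers past both thresholds or near background. *Acacb*, *aqp7*, *myod1*, *col1a1*, *col3a1* and *dcn*, outside this rule, were added after their values were seen. For 1 listed gene no values are reported here. Alternatives were normexp (offset 50) with loess, median centring without lowess, no filter or a filter on both channels, a plain one-sample test, array weights, no pairing by array, each array left out, and the mean of all tested probes of a gene.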

Additional observations from a re-analysis of the deposited data

Results flagged for a closer look

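In 42 probes of the named genes the 4 log2 ratios were examined for a single array far from the rest, by the gap to its neighbor as a share of the range (Dixon's test). Chance gives about 1 in 20 such groups, and 2 of 42 exceeded the critical value. For the *scd* probe A_69_P094732 the share was 0.850, with 0.57 on array 4 beside 0.22 to 0.27 on the others. For the *fads2* probe A_69_P010506, which was not tested for being dim, it was 0.90, with 1.37 on array 4 beside 0.88 to 0.93.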

How the results depend on the processing

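With normexp and loess 1297 probes were past both thresholds in place of 2399, without a filter on dim probes 908, and with the plain one-sample test 147. Without lowess there were 3389, of which 1740 were higher, against 894 of 2399. Of the members, past both thresholds were 1 with normexp and loess (*scd5*), 1 without the filter (*elovl6*), 3 without lowess (*elovl1* joining) and 0 with the plain test, in place of 2. For the other fatty acid genes normexp, no filter and the plain test gave 2, 1 and 1 in place of 7, and for the sterol genes 0, 0 and 0 in place of 2; array weights gave 2 and 0. With no replicate block, which ignores the pairing of the channels by array, 370 probes, 1 member (*elovl6*), 0 other fatty acid genes and 0 sterol genes passed. With 1 array left out the counts were 1566 to 2430 probes, 1 to 3 members, 1 to 4 other fatty acid genes and 0 to 3 sterol genes. *Scd5* was not past both thresholds without array 2 and *acaca* was without array 3, while *elovl6* was with each array left out. Of the 3 members without array 4, *fads2* met the filter through the GO channel alone, where it was the higher. Why the counts moved was not tested. No member with a fold change above 1.3 changed direction under any alternative. Signal over background limits *fads2*, *acaca*, *elovl5* and *scd5*, and 4 arrays of 1 dye orientation limit all values.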
